A study of Mus musculus with 69 samples.

Results

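The cytochrome P450 (Cyp) genes were followed in RNA sequencing libraries of perfused whole kidneys from female NZB/W F1 mice, a hybrid strain that develops lupus nephritis with age. Of the 105 symbols that start with Cyp and a digit, 10 were set aside by the rule that defined the group (enzymes of the steroid hormone, vitamin D and cholesterol pathways, and the pair Cyp4a10 and Cyp4a14), and 17 more had fewer than 100 counts over the 65 original libraries. The remaining 78 genes are described here, among 17587 symbols that reached the same total. The young group held 30 mice aged 12 weeks, and the nephritic group held 27 mice aged 30 to 45 weeks that were harvested weeks after proteinuria began. The remission group held 8 mice aged 36 to 50 weeks that had been nephritic, had received cyclophosphamide, CTLA4Ig and anti-CD40L, and had stayed in clinical remission. Kidneys were taken at Zeitgeber time (ZT, hours after lights on) 0, 4, 8, 12, 16 and 20, with 7, 4, 4, 7, 4 and 4 young mice and 7, 4, 4, 6, 3 and 3 nephritic mice, and at ZT0 and ZT12 with 4 remission mice each. All groups shared strain and sex, and the labels name no transgene or engineered allele. Nephritic mice were also older than young mice, and remission mice had also been given the drugs, so that disease and age, or remission and treatment, cannot be told apart in these groups.

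Cytochrome P450 enzymes are haem proteins that insert oxygen into lipids, sterols, retinoids, drugs and toxins, and most of them take their electrons from the reductase encoded by Por. In the kidney they are found above all in proximal tubule cells, where CYP2J and CYP2C enzymes make epoxides of arachidonic acid and CYP4A enzymes add a hydroxyl group to the end of fatty acids, products that act on vessel tone and salt transport. Liver holds far more of the drug-metabolising CYP2C and CYP3A enzymes and of the bile acid enzymes Cyp7a1 and Cyp8b1. Several P450 genes of liver and kidney follow the day through the clock output factors Dbp, Tef and Hlf, and Cyp2a5 and Cyp2b10 are textbook examples.

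The upstream sequences of Cyp2a4, Cyp2a5 and Cyp2b10 are printed because Cyp2a4 and Cyp2a5 are near copies whose levels moved apart over the day and between groups, and because Cyp2b10 served as a marker of the gene group. Each runs 5′ to 3′ over the 250 bases before the RefSeq start on the plus strand of GRCm38.p6, at chr7:26306942-26307191 for Cyp2a4, chr7:26835089-26835338 for Cyp2a5 and chr7:25897408-25897657 for Cyp2b10. Capitals mark the word TTGCATAA, which was picked after the sequences had been read and begins 70, 71 and 58 bases before the start.
Cyp2a4: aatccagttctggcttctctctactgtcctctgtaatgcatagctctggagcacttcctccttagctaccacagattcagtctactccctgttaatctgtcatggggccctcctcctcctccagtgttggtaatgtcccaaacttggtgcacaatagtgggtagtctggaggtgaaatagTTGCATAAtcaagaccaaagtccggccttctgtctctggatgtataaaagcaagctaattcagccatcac
Cyp2a5: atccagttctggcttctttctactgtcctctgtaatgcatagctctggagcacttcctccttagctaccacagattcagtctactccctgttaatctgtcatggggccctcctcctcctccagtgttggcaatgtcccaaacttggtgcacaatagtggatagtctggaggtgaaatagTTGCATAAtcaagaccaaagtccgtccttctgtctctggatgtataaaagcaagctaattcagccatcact
Cyp2b10: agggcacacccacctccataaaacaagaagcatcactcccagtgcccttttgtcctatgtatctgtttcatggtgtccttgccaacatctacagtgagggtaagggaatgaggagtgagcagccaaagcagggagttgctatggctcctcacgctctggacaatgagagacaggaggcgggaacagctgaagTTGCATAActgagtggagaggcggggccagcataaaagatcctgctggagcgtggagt
The Cyp2a4 and Cyp2a5 stretches carry the same base at 245 of 249 aligned positions (98.4%) once they are shifted by 1 base, while 4.2% of the 150-base stretches of Cyp2a4 and 5.8% of those of Cyp2a5 in the exons are shared with other genes. Searched on both strands, TTGCATAA stood in 6 of the 61 members with a RefSeq promoter (Cyp2a4, Cyp2a5, Cyp2b10, Cyp2b19, Cyp2b23 and Cyp4f14) and in 0.694% of 32851 promoters of the same length. The word was picked from the sequences printed above, which are counted among these members, and Cyp2a4 and Cyp2a5 are near copies. The numbers are therefore no test of enrichment. For every word, members were counted by symbol and all promoters by entry. The E-box CACGTG stood in 2 members, Cyp2j6 and Cyp4v3, and in 6.021% of all promoters, and the D-box words TTATGTAA and TTACGTAA stood in 0 members and in 0.931% of all promoters.

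Libraries held between 25257530 and 35744843 counts in young mice, between 26596500 and 48075977 in nephritic mice and between 13311278 and 21849912 in remission mice. The summed level of the proximal tubule markers, a list of kidney genes, lay between 29490 and 36820 CPM (counts scaled by edgeR to a common library size with TMM factors) in young, 4141 and 30150 in nephritic and 19430 and 28190 in remission libraries, so that every library held these kidney genes. In 7 libraries Alb, the albumin gene of hepatocytes, was above 1000 CPM, in young mice 8 (ZT4), 11 (ZT8), 17, 19 and 20 (ZT16) and in nephritic mice 6 and 8 (ZT0). Levels ran on below this limit, with 474 to 678 CPM in nephritic mice 9, 14, 15 and 17. Over all libraries Alb ran from 20.4 to 10520 CPM in young (median 154), from 2.25 to 3072 in nephritic (median 162) and from 5.50 to 15.1 in remission mice (median 7.13). At least 100 counts of the adrenal gene Cyp11b1 were present in 9 libraries, of which 8 were young and 4 were among those with high Alb. Remission mouse 8, labelled ZT12, had 27.01 CPM of the clock gene Arntl and 7.91 CPM of Dbp, whereas the other 3 remission mice of ZT12 had 3.19 to 4.89 and 74.4 to 122, so that it went against its time label. Nephritic mouse 16, labelled ZT8, had 17.97 CPM of Arntl and 10.02 of Dbp, whereas the other 3 nephritic mice of ZT8 had 2.10 to 3.70 and 108 to 139. Results that rest on the high-Alb libraries or on these mice are given with and without them or beside their values.

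The P450 genes with the highest levels in the young kidney were an arachidonic acid epoxygenase, a family of fatty acid hydroxylases and members of CYP2A, CYP2D and CYP2E. Cyp2j5 (chr4:96628773-96664154, minus strand, GENCODE vM21 on GRCm38), the epoxygenase of proximal tubule, led with 942 ± 107 CPM (SD, n = 30 young mice) or 402 CPM per kilobase of exon. Cyp4b1, a fatty acid and xenobiotic hydroxylase, followed with 732 ± 172 CPM (324 per kilobase), and Cyp2d26, a CYP2D enzyme, with 486 ± 74.4 CPM (271 per kilobase). Neighbours in this order overlapped between mice, with young ranges of 711 to 1126 CPM for Cyp2j5, 441 to 1178 for Cyp4b1 and 357 to 682 for Cyp2d26. Cyp4a31, a fatty acid hydroxylase, had 345 ± 73.5 CPM (137 per kilobase), Cyp2a5, the coumarin hydroxylase, 258 ± 170 CPM (124 per kilobase), and Cyp2a4, a testosterone hydroxylase that is its near copy, 199 ± 56.6 CPM (114 per kilobase). Cyp2j11 had 189 ± 30.4 CPM (98.7 per kilobase), Cyp2e1, the ethanol-oxidising enzyme, 180 ± 162 CPM (83.7 per kilobase), Cyp2d22 89.8 ± 12.9 CPM (22.97 per kilobase) and Cyp27a1, the sterol hydroxylase of the mitochondrion, 56.0 ± 12.1 CPM (25.8 per kilobase). The wide SDs belonged to Cyp2a5, which varied over the day, and to Cyp2e1, which was highest in high-Alb libraries.

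**Figure D1:**
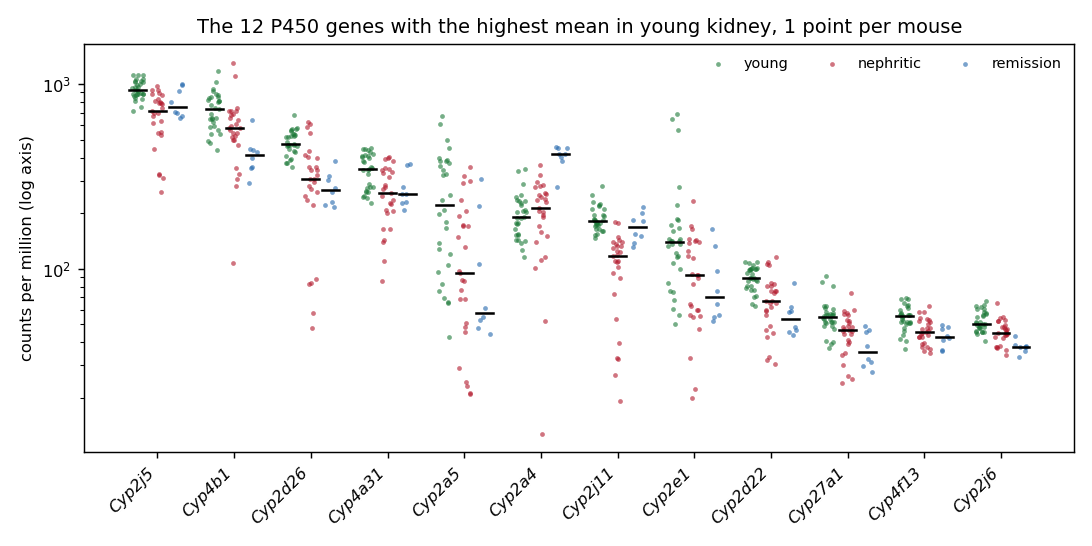
Level in CPM (log axis) of the 12 P450 genes with the highest mean in young kidneys, with 1 point per mouse in the young, nephritic and remission groups and a black bar at the median. Cyp2j5 and Cyp4b1 lead in young mice with medians of 929 and 734 CPM, and the lowest points of Cyp2j5, Cyp2d26 and Cyp2j11 belong to nephritic mice.

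The 78 genes fell into 3 classes by how much of their young signal came from the 5 young libraries with high Alb, which would hold 16.7% of it if the signal were even. This grouping was made after the values had been seen, and the thresholds of 70% and 30% are descriptive. Because these 5 young libraries define the classes, the class counts below follow in part from the definition. This holds for lower levels in nephritic mice, highest young means at ZT16, differences in rhythm and calls lost without these libraries. In 30 genes, called Alb-linked below, these 5 libraries held 75.5% to 89.8% of the summed CPM. They were 11 of 12 CYP2C genes, 6 of 7 CYP3A genes, the bile acid genes Cyp7a1 and Cyp8b1, and 11 genes of CYP1A, CYP2A, CYP2B, CYP2D and CYP2G, among them Cyp1a2 and Cyp2b10. In 10 intermediate genes the share was 34.1% to 66.3%, among them Cyp2e1 with 42.8% and Cyp2r1, the vitamin D hydroxylase. In the other 38, called evenly spread, it was 11.8% to 26.9%, and all 6 CYP2J genes and 10 of the 14 CYP4 genes were among them. The log2 correlation with Alb over the 65 libraries ran from 0.46 to 0.92 in Alb-linked genes. It ran from -0.12 to 0.76 in intermediate and from -0.35 to 0.58 in evenly spread genes, so that the classes overlapped in it.

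Cyp3a11, the main CYP3A enzyme of mouse liver, showed the pattern. It had 52.6, 238, 290, 244 and 42.2 CPM in young mice 8, 11, 17, 19 and 20 and 28.9 and 8.09 CPM in nephritic mice 6 and 8, with a mean of 173 CPM in the 5 high-Alb young libraries and 4.49 CPM in the other 25. Cyp2c29, a liver CYP2C enzyme, had means of 73.1 and 2.22 CPM in the same libraries. Set against Alb in the same library, Cyp3a11 ran at 0.0227 to 0.0309 CPM per CPM of Alb in the 5 young libraries and at 0.00941 and 0.00658 in the 2 nephritic libraries. The marker list for hepatocytes moved along. Its sum ran from 148 to 14690 CPM in young, 99.0 to 3886 in nephritic and 117 to 205 in remission mice. P450 results are given below also without the 7 libraries and with a covariate for the hepatocyte markers. The list does not follow Alb alone. In remission mice Alb ran from 5.50 to 15.1 CPM and Ahsg from 0 to 0.297. Ttr ran from 57.3 to 93.9 CPM there and Fga from 27.1 to 76.3. The covariate is therefore no measure of hepatocyte RNA alone.

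**Figure D2:**
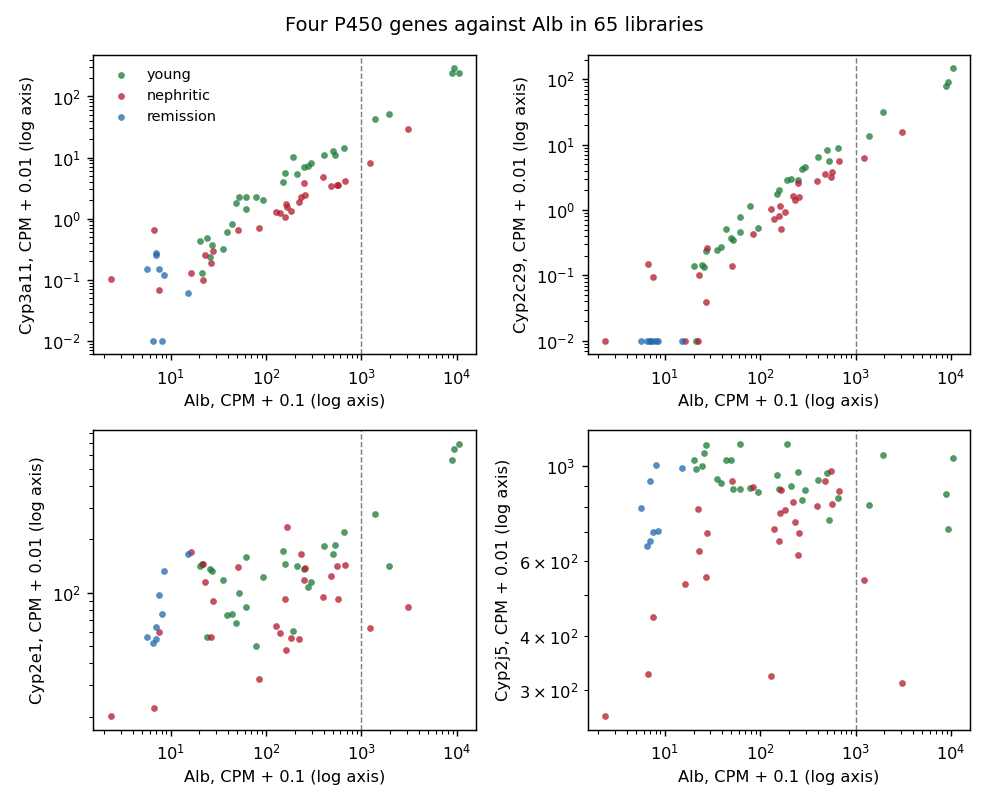
Level of Cyp3a11, Cyp2c29, Cyp2e1 and Cyp2j5 (CPM plus 0.01) against Alb (CPM plus 0.1) in the 65 original libraries, both on log axes, with a dashed line at 1000 CPM of Alb. Cyp3a11 and Cyp2c29 climb with Alb, Cyp2e1 has its 4 highest points right of the line, and Cyp2j5 stays between 260 and 1126 CPM.

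The comparison of nephritic with young mice asked how P450 levels differ in established lupus nephritis, in a fit over 57 mice with time point and RNASeq set (Set 1 with 6 young and 5 nephritic mice, Set 2 with 24 and 22) as covariates. Of the 78 genes, 13 were higher and 44 lower in nephritic kidneys (adjusted p at most 0.05, edgeR's quasi-likelihood test with Benjamini-Hochberg adjustment over all 17521 genes tested), where 28.1% of all genes were higher and 33.9% lower. The median log2 change was -0.42 over the P450 genes and -0.03 over all genes. In bulk kidney, fewer cells of a type and less RNA per cell cannot be told apart. Without the 7 high-Alb libraries, 17 P450 genes were higher and 18 lower of 76 tested, with 26.7% and 29.9% of all genes and a median of -0.27. Without the 9 libraries that held Cyp11b1, 12 were higher and 29 lower of 78, with 28.8% and 28.9% of all genes. With the hepatocyte covariate the counts hardly moved, at 15 higher and 42 lower of 78, with 28.6% and 34.1%. Among the 30 Alb-linked genes 26 were lower and 0 higher with all libraries, 5 were lower and 2 higher of 28 without the high-Alb libraries, and 24 were lower and 2 higher of 30 with the hepatocyte covariate, where their median was -0.89. Among the 38 evenly spread genes the counts were 14 lower and 11 higher with all libraries and 11 lower and 11 higher without them. In all, 12 genes were higher and 18 lower in each of the fits with all libraries, without the 7 libraries and with the hepatocyte covariate.

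The epoxygenase family CYP2J was lower in 4 of its 6 members. Cyp2j5 ran from 711 to 1126 CPM in young mice (median 929), from 260 to 975 in nephritic mice (median 714) and from 652 to 1005 in remission mice (median 753). The ranges overlapped, and the lowest values were nephritic. Cyp2j5 fell by 0.53 on the log2 scale in nephritic mice (SE 0.09, adjusted p = 2.83e-06), by 0.47 without the high-Alb libraries and by 0.32 in Set 2 alone. Cyp2j11 ran from 147 to 280 CPM in young (median 183) and from 19.3 to 179 in nephritic mice (median 118), and the nephritic median lay below the lowest young value. It fell by 0.90 (SE 0.15, adjusted p = 1.22e-06), by 0.84 without the high-Alb libraries and by 0.64 in Set 2 alone. Cyp2j6 fell by 0.22 and Cyp2j8 by 0.39, the latter a call that was lost when any of 21 single mice was left out, while Cyp2j9 had a log2 change of -0.02 that did not pass (adjusted p = 0.694).

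Cyp2j13 was the CYP2J gene that rose. It ran from 0.0399 to 1.34 CPM in young (median 0.298), from 0.208 to 7.53 in nephritic (median 0.916) and from 0.358 to 2.11 in remission mice (median 0.703). Its log2 change was 2.17 (SE 0.37, adjusted p = 1.25e-06), 2.01 without the high-Alb libraries.

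The fatty acid hydroxylases of CYP4 moved both ways, with 7 members higher and 5 lower of 14. Cyp4a12a (chr4:115299046-115332815, plus strand), a CYP4A enzyme that makes a vasoconstrictor from arachidonic acid and is higher in male than in female mouse kidney, ran from 1.72 to 7.32 CPM in young mice (median 3.59), from 4.71 to 71.3 in nephritic mice (median 11.7) and from 3.36 to 13.4 in remission mice (median 6.43). Young and nephritic ranges overlapped only between 4.71 and 7.32 CPM. Its log2 change was 1.97 (SE 0.20, adjusted p = 6.57e-12), 1.78 without the high-Alb libraries and 1.72 in Set 2 alone. Its neighbour and near copy Cyp4a12b (chr4:115411624-115439034, plus strand) ran from 0.343 to 1.67 CPM in young, 0.886 to 43.6 in nephritic and 0.461 to 2.11 in remission mice. It had the highest fitted increase of the P450 genes, 2.69 (SE 0.33, adjusted p = 1.23e-09), and 2.23 without the high-Alb libraries. The copies share 25.6% (Cyp4a12a) and 25.9% (Cyp4a12b) of their stretches of 150 exon bases, so that reads may have been split between them and the change of each alone is uncertain.

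Other CYP4 genes that rose were Cyp4f18, a leukotriene-metabolising enzyme of leukocytes, up by 1.81 on the log2 scale (SE 0.42, adjusted p = 0.000177), Cyp4f16 with 0.62, Cyp4f17 with 0.29, Cyp4f39 with 0.47 and Cyp4v3, a fatty acid hydroxylase, with 0.39. Cyp4f18 ran from 0 to 4.02 CPM in young (median 0.108) and from 0.301 to 3.66 in nephritic mice (median 0.947). The groups overlapped over most of their range. Cyp4b1 ran from 441 to 1178 CPM in young (median 734) and from 107 to 1307 in nephritic mice (median 576), so that nephritic mice held both the lowest and the highest value. It fell by 0.34 (SE 0.12, adjusted p = 0.0164), a call that was lost without nephritic mouse 5 (fell by 0.27). Cyp4a31 ran from 226 to 450 CPM in young (median 349) and from 85.8 to 401 in nephritic mice (median 256), and fell by 0.42 (SE 0.10, adjusted p = 0.000449). Cyp4f13 fell by 0.25, Cyp4f14 by 1.15 and Cyp4f15 fell by 1.25, the last not past the test without the high-Alb libraries (-0.36, adjusted p = 0.126).

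In CYP2D, 3 genes rose and 5 fell of 9. Cyp2d9 (chr15:82433437-82456845, plus strand), a testosterone hydroxylase that predominates in male mouse liver, ran from 4.44 to 14.7 CPM in young (median 7.78) and from 1.41 to 25.8 in nephritic mice (median 15.3). The nephritic median lay above the highest young value, and the lowest value was nephritic too. Its log2 change was 0.91 (SE 0.13, adjusted p = 2.46e-08), and 1.00 in Set 2 alone. Cyp2d34, with at most 0.287 CPM in any nephritic mouse, changed by 1.09 on the log2 scale (SE 0.33, adjusted p = 0.00359), and Cyp2d12 by 0.75 (adjusted p = 0.031), a call that was lost without nephritic mouse 2, 22 or 26 (0.64 to 0.66). Cyp2d26 ran from 357 to 682 CPM in young (median 472) and from 48.0 to 621 in nephritic mice (median 306), and fell by 0.69 (SE 0.16, adjusted p = 0.000255). Cyp2d22 fell by 0.42 (SE 0.09, adjusted p = 7.49e-05).

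Among the smaller families, Cyp1b1, which metabolises oestrogens and polycyclic hydrocarbons outside the liver, ran from 9.08 to 23.6 CPM in young (median 14.3) and from 14.2 to 53.8 in nephritic mice (median 31.6). Its groups overlapped between 14.2 and 23.6 CPM, and the log2 change was 1.03 (SE 0.12, adjusted p = 1.45e-10). Cyp2ab1 rose from a median of 0.0395 to 0.209 CPM (log2 change 1.88, SE 0.26, adjusted p = 1.49e-08), both low levels. Cyp26b1, which clears retinoic acid, fell by 0.74 (SE 0.30, adjusted p = 0.0289), a call that was lost without young mouse 1, 12 or 26 or nephritic mouse 4, 5 or 14 (-0.56 to -0.68). Cyp2a5 (chr7:26835305-26843548, plus strand) ran from 42.9 to 668 CPM in young (median 222) and from 21.1 to 354 in nephritic mice (median 94.7), and fell by 0.79 (SE 0.22, adjusted p = 0.0015). Its near copy Cyp2a4 (chr7:26307169-26315088, plus strand) ran from 116 to 345 and from 12.8 to 365 CPM with medians of 190 and 212, and had a log2 change of 0.00 (SE 0.16, adjusted p = 0.998). Cyp2s1, a retinoid-metabolising enzyme of epithelia, had a change of 0.13 (adjusted p = 0.122), Cyp7b1, the oxysterol hydroxylase, 0.01 (adjusted p = 0.971) and Cyp46a1, the cholesterol hydroxylase best known from neurons, 0.08 (adjusted p = 0.306).

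Cyp2e1 (chr7:140763739-140774987, plus strand), the other gene that marks the group, ran from 50.2 to 692 CPM in young (median 139), from 20.01 to 234 in nephritic (median 92.3) and from 52.1 to 165 in remission mice (median 70.1). It fell by 0.75 in nephritic mice (SE 0.21, adjusted p = 0.00173), and without the high-Alb libraries its log2 change was -0.36 and did not pass (adjusted p = 0.0797). Cyp27a1 behaved alike, with a fall of 0.29 (adjusted p = 0.00111) and a change of -0.16 without those libraries (adjusted p = 0.0511). Cyp2f2, a lung and liver enzyme of naphthalene metabolism, fell by 1.05 with all libraries and by 0.47 without the 7.

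A set of 5 nephritic mice stood apart in these genes. Mice 3, 4 and 5 of Set 1 and mice 6 and 8 of Set 2 had the 5 lowest sums of proximal tubule markers. The sums were 4140, 6420, 7830, 5220 and 10000 CPM, against 15300 to 30150 CPM in the other 22 nephritic mice. Mice 6 and 8 were also the nephritic mice left out for high Alb. Fits without them thus left out high Alb and low tubule markers together, and the 2 cannot be told apart there. In these 5 mice Cyp4a12b ran from 10.6 to 43.6 CPM and Cyp2j13 from 4.73 to 7.53, against 0.886 to 9.51 and 0.208 to 3.92 in the other 22, and neither range overlapped. Cyp4a12a ran from 11.9 to 71.3 CPM against 4.71 to 19.2 CPM. Cyp2d26 (48.0 to 87.6 CPM), Cyp4b1 (107 to 350) and Cyp2a4 (12.8 to 116) lay below the whole range of the other 22 mice (220 to 621, 467 to 1310 and 140 to 365), whereas Cyp2j5 (260 to 541 against 443 to 975) overlapped it. Cyp1b1 did not set them apart, with 18.2 to 46.5 CPM against 14.2 to 53.8. In the comparison of groups, 16 of 16 proximal tubule markers fell (median log2 change -0.75), 5 of 5 tubular injury markers rose (3.73) and 9 of 10 leukocyte markers rose (2.59), and their part in the P450 differences was not tested. Of the 9 hepatocyte markers, 1 rose and 2 fell in the same comparison (median log2 change -0.83).

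The Alb-linked genes held the largest fitted decreases. For most of them the fall did not pass once the high-Alb libraries were left out, although most passed with the hepatocyte covariate. Cyp3a11 ran from 0.121 to 290 CPM in young (median 4.62) and from 0.0568 to 28.9 in nephritic mice (median 1.33). Its ranges overlapped over most of their width, and it fell by 2.53 (SE 0.69, adjusted p = 0.00131) with all libraries and fell by 1.503 (adjusted p = 0.00343) without the 7. Cyp2c40, a CYP2C enzyme, fell by 2.85 (adjusted p = 0.000207) and by 1.54 (adjusted p = 0.00532), and Cyp1a2, the caffeine-metabolising enzyme of liver, by 2.50 and by 1.13 (adjusted p = 0.0424). Cyp2c39 fell by 2.53 and by 1.23, and Cyp2c69 by 1.75 and by 0.70. Cyp2c40, Cyp2c69, Cyp2c67 and Cyp3a41a share 29.1%, 22.5%, 13% and 82.9% of their 150-base stretches with other genes, so that their own values are uncertain.

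Of the other large decreases, Cyp3a59 (fell by 2.37 with all libraries), Cyp2c37 (2.36 lower), Cyp3a25 (2.36 lower) and Cyp3a16 (2.32 lower) did not pass without the high-Alb libraries, with log2 changes of -0.97, -0.93, -1.08 and -0.75. The call of Cyp3a16 was lost also without young mouse 11 (fell by 1.42). Cyp7a1, the rate-limiting enzyme of bile acid synthesis, fell by 1.86 (adjusted p = 0.0259), a call that was lost without young mouse 8 (fell by 1.66) or young mouse 11 (fell by 1.22). Cyp2b10 (chr7:25897620-25926624, plus strand), the target gene of the xenobiotic receptor Nr1i3, went the other way. It ran from 0 to 4.39 CPM in young (median 0.0942), from 0 to 2.08 in nephritic (median 0.361) and from 0 to 1.14 in remission mice (median 0.155). Its log2 change was 0.31 (SE 0.60, adjusted p = 0.667) with all libraries, 1.74 (SE 0.46, adjusted p = 0.00111) without the 7 and 1.46, also past the test, with the hepatocyte covariate. The pseudogene Cyp2d37-ps had changes of 0.45 (adjusted p = 0.481) and 1.56 (adjusted p = 0.000123).

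**Figure D3:**
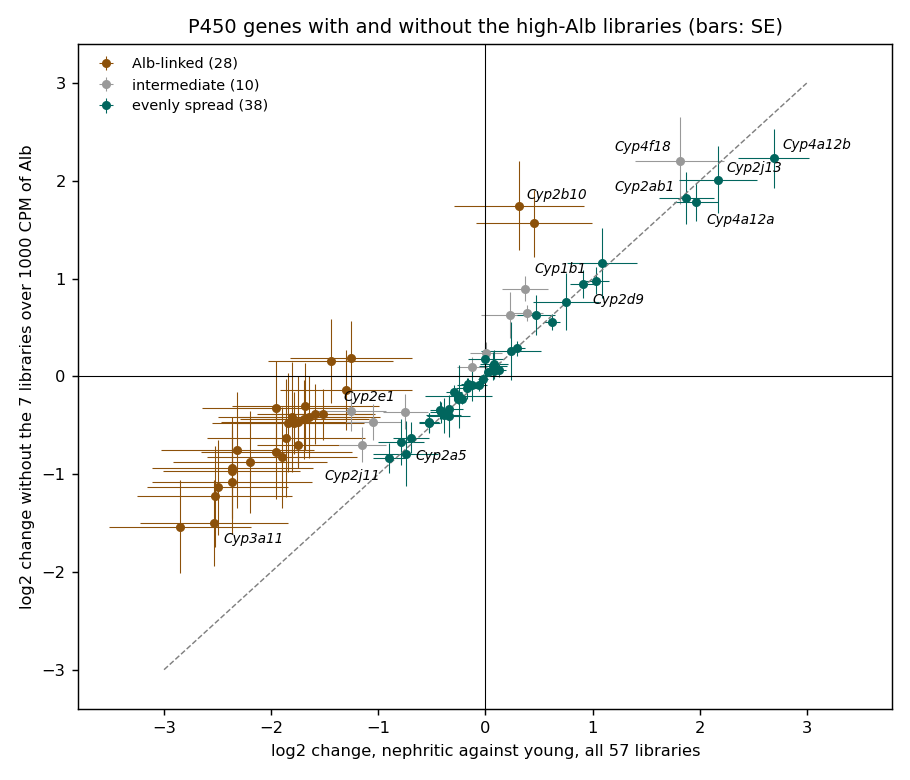
Log2 change of 76 P450 genes in nephritic against young mice with all 57 libraries (x axis) and without the 7 high-Alb libraries (y axis), with SE bars, a dashed diagonal and colours for the 28 Alb-linked, 10 intermediate and 38 evenly spread genes. The evenly spread genes lie near the diagonal, with medians of -0.04 and -0.05, and the Alb-linked genes lie above it, with medians of -1.83 and -0.47. The classes were defined by the share of young signal in high-Alb libraries, so that this split follows in part from the definition.

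The test over the 6 time points asked which P450 genes vary over the day in young kidney. It called 55 of 74 tested P450 genes, with 39.8% of all genes called, and 21 of 69 without the 5 high-Alb young libraries, with 24.2%. With the hepatocyte covariate 27 of 74 were called, with 35.9% of all genes, and without the libraries that held Cyp11b1 32 of 72, with 24.4%. With all libraries 25 of 29 Alb-linked genes and 9 of 10 intermediate genes were called. Highest means over time points are here fitted means of log2 CPM with RNASeq set as covariate. Without the high-Alb libraries, or without those that held Cyp11b1, only young mouse 18 was left at ZT16. Calls kept or lost in these fits rest on that mouse alone for ZT16. With all libraries every called Alb-linked or intermediate gene had its highest mean at ZT16, the time of 3 of the 5 high-Alb young libraries. Without those libraries 1 Alb-linked gene, Cyp7a1, and 2 intermediate genes, Cyp2e1 and Cyp3a13, were called. Of the evenly spread genes 21 of 35 were called with all libraries and 18 of 34 without, and their highest means were at ZT8 in 10 genes, ZT16 in 5, ZT4 in 4 and ZT12 in 2. In the fits with and without the high-Alb libraries 19 genes were called both times.

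Cyp2a5 had the clearest day pattern of the evenly spread genes. In young mice it ran from 42.9 to 95.8 CPM at ZT0, 104 to 138 at ZT4, 344 to 668 at ZT8, 236 to 451 at ZT12, 252 to 384 at ZT16 and 167 to 208 at ZT20. The ranges of ZT0 and ZT8 did not overlap, and no mouse of ZT0 reached any mouse of ZT4. The amplitude of a cosine of 24 hours was 1.24 on the log2 CPM scale (SE 0.12, adjusted p over time points = 5.4e-12). In nephritic mice Cyp2a5 ran from 21.2 to 149 CPM at ZT0, was 45.7 (mouse 16), 292, 297 and 318 at ZT8, and ran from 170 to 354 at ZT20. The nephritic amplitude was 0.38 (SE 0.33, adjusted p over time points = 0.222), and the test for a different rhythm in the groups gave an adjusted p of 0.12, so that a difference between groups was not shown. Its near copy Cyp2a4 had a young amplitude of 0.35 (adjusted p = 0.0171), a call that was lost without young mouse 19 (adjusted p = 0.0555), and its highest mean was 262 CPM at ZT16 against 141 at ZT4.

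The CYP4A hydroxylases Cyp4a31 and Cyp4a32 also varied over the day in young mice. Cyp4a31 ran from 226 to 262 CPM at ZT4 and from 409 to 450 at ZT16 in young mice, with no overlap (amplitude 0.42, SE 0.04, adjusted p = 5.04e-07). In nephritic mice Cyp4a31 had an amplitude of 0.17 (adjusted p over time points = 0.473). It was called over time points there once the high-Alb nephritic mice 6 and 8 were left out. Cyp4a32 ran from 0.895 to 1.41 CPM at ZT0 and from 3.58 to 4.03 at ZT8 in young mice, again without overlap (amplitude 0.78, SE 0.08, adjusted p = 1.08e-07). In nephritic mice Cyp4a32 ran from 1.08 to 2.58 CPM at ZT0 and from 2.29 to 4.28 at ZT8, with an amplitude of 0.34 (adjusted p = 0.23). The difference in rhythm between the groups passed for Cyp4a32 (adjusted p = 0.0252, and 0.0409 without the high-Alb libraries).

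Other evenly spread genes with a day pattern in young mice were Cyp2s1, which ran from 29.2 to 37.7 CPM at ZT8 and from 18.4 to 24.4 at ZT16 (adjusted p = 1.44e-06), Cyp4f13 (adjusted p = 7.03e-05), Cyp46a1 (adjusted p = 0.000228), Cyp2d22 (adjusted p = 0.000984) and Cyp27a1 (adjusted p = 0.0044). Their amplitudes were small, at 0.33 for Cyp2s1, 0.29 for Cyp46a1, 0.23 for Cyp27a1 and 0.21 for Cyp4f13. Cyp2e1 ran from 50.2 to 99.7 CPM at ZT0 and was 135, 145, 172 and 692 at ZT8 and 122, 277, 562 and 645 at ZT16, where the highest values of both times were in high-Alb libraries. Its amplitude was 0.77 (SE 0.17), and its adjusted p over time points was 0.000244 with all libraries and 1.13e-05 without the 5.

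In the Alb-linked class the amplitudes of young mice were larger and their errors wide. Cyp7a1 had an amplitude of 1.48 (SE 0.54, adjusted p = 0.001), which passed also without the high-Alb libraries (adjusted p = 0.035). Cyp2d13 had 1.06 (adjusted p = 0.00868), Cyp3a25 1.04 (adjusted p = 0.0142) and Cyp2d10 1.03 (adjusted p = 0.00645), and none of these 3 passed without the high-Alb libraries. The intermediate gene Cyp4f18 had 0.97 (adjusted p = 0.026), a call that was lost without young mouse 17 (adjusted p = 0.071).

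**Figure D4:**
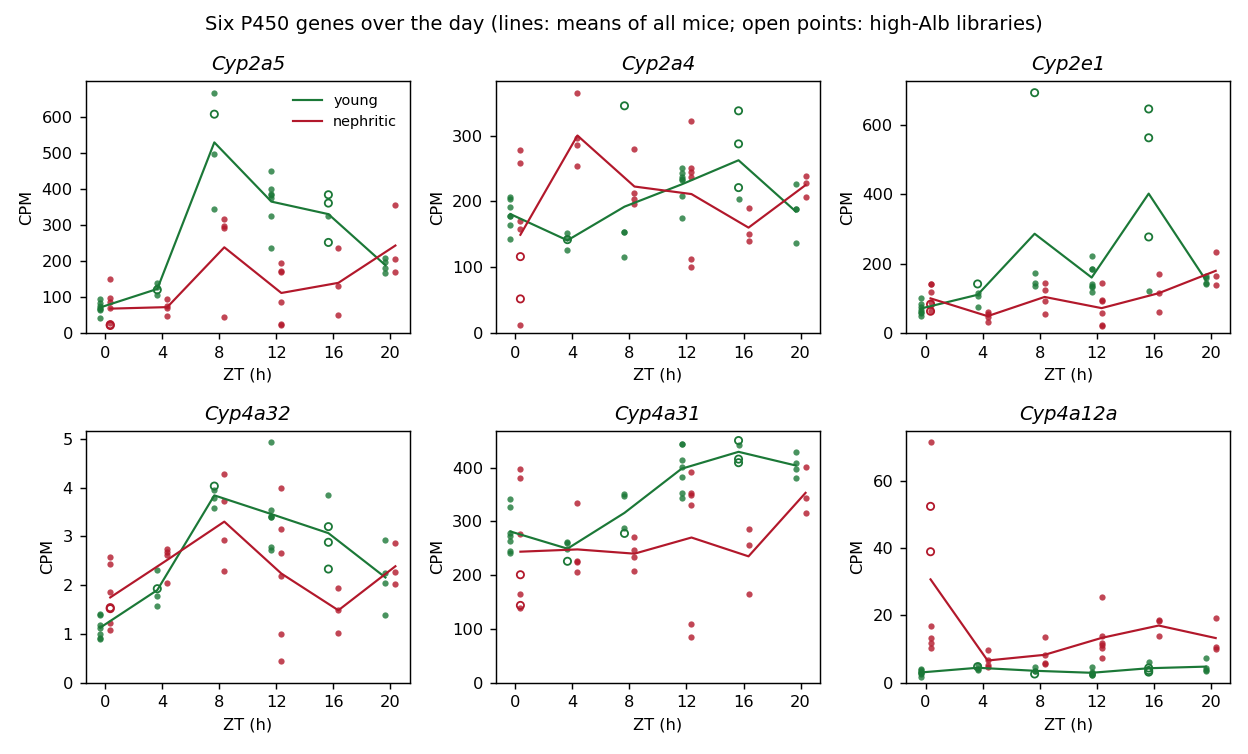
Level in CPM of Cyp2a5, Cyp2a4, Cyp2e1, Cyp4a32, Cyp4a31 and Cyp4a12a by Zeitgeber time in young and nephritic mice, with 1 point per mouse, lines through the means and open points for high-Alb libraries. Young Cyp2a5 climbs from 71.2 CPM at ZT0 to 529 at ZT8, while the 4 nephritic mice of ZT8 include 1 at 45.7 CPM, and the highest Cyp2e1 points at ZT8 and ZT16 are open.

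In nephritic mice the test over time points called 27 of 74 P450 genes, with 21.6% of all genes called, and 32 of 73 without the high-Alb nephritic mice 6 and 8, with 42.8%. With the hepatocyte covariate 10 of 74 were called, with 33.4%. With all libraries the called genes were 21 of 27 Alb-linked, 4 of 37 evenly spread (Cyp4a12a, Cyp26b1, Cyp2j6 and Cyp4f13) and 2 intermediate genes, and without these 2 mice 18, 11 and 3. Of the 21 evenly spread genes with a day pattern in young mice, 2 were also called in nephritic mice, Cyp2j6 and Cyp4f13. Without mice 6 and 8, Cyp2d22, Cyp2j13, Cyp2s1, Cyp4a31 and Cyp4f16 of these 21 were called as well. The same overlap over all genes was not counted. In 13 of these 21 the nephritic amplitude was the lower one, with medians of 0.21 in young and 0.17 in nephritic mice. The 21 genes were picked by the young test, which favours higher young amplitudes, and this count was not made over all genes. It therefore does not show a loss of amplitude in nephritic mice. Nephritic Cyp26b1 was 40.8 and 35.4 CPM in mice 11 and 12 and 6.49 and 8.28 in the other mice of ZT4, and its call was lost without mouse 11 (adjusted p = 0.0983) or mouse 12 (adjusted p = 0.0856), and also without mouse 14, 15 or 17. Mice 11 and 12 were the closest original libraries, at 2.05 times counting noise, and without either of them 23 P450 genes were called. The nephritic call of Cyp4f13 was lost without mouse 14, 17, 19 or 21, and the young call of Cyp2j6 when any of 7 single mice was left out.

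Of the 21 Alb-linked genes called in nephritic mice, 12 had their highest fitted mean of log2 CPM at ZT8 and 1, Cyp2b10, at ZT20. The other 8 had it at ZT0, the time of nephritic mice 6 and 8. In the nephritic mice of ZT8, all under the limit of 1000 CPM, Alb was 223 to 678 CPM. It was 84.0 to 180 at ZT4, 2.25 to 391 at ZT12, 7.38 to 22.6 at ZT16 and 166 to 258 at ZT20. Alb thus still differed between time points once mice 6 and 8 were left out. Cyp2b10 was 0, 0, 0 and 0.0865 CPM at ZT4 and 1.19, 1.59 and 1.90 CPM at ZT20. Its amplitude was 1.86 (SE 0.35, adjusted p = 0.00935), and it passed without mice 6 and 8 (adjusted p = 0.00102). Cyp2c29 (amplitude 1.82, adjusted p = 0.00984), Cyp2c54 (1.54, adjusted p = 0.0105), Cyp2c50 (1.51, adjusted p = 0.0112), Cyp2c70 (1.49, adjusted p = 0.00255) and Cyp2a12, a steroid hydroxylase of liver (1.48, adjusted p = 0.00475), were the next largest. Cyp4a12a was 38.9, 52.4 and 71.3 CPM in nephritic mice 6, 8 and 3 at ZT0, and its call over time points (amplitude 0.70, adjusted p = 0.025) was lost without mouse 6 (adjusted p = 0.0525), without mouse 8 (adjusted p = 0.0732) and without both (adjusted p = 0.108). Cyp2e1 ran from 32.7 to 59.5 CPM at ZT4 and from 139 to 234 at ZT20 (amplitude 0.64, adjusted p = 0.0314), a call that was lost in turn without nephritic mice 11, 12, 13, 26 or 27 (adjusted p = 0.0508 to 0.072).

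The test of the difference in rhythm itself called 30 of 78 P450 genes, with 6.27% of all genes called. They were 25 of 30 Alb-linked genes, the intermediate genes Cyp2e1 (adjusted p = 0.015) and Cyp3a13 (adjusted p = 0.0171), a CYP3A gene, and 3 of 38 evenly spread genes, Cyp4a12a (adjusted p = 0.00958), Cyp4a32 and Cyp4a12b (adjusted p = 0.048). Among the lowest adjusted p of the Alb-linked genes were those of Cyp7a1 (0.015), Cyp2a12 (0.0172), Cyp2c70 (0.0173), Cyp2d37-ps (0.0176) and Cyp2b10 (0.0211). Without the 7 high-Alb libraries 2 of 76 were called, Cyp2e1 (adjusted p = 0.0112) and Cyp4a32 (adjusted p = 0.0409), with 2.98% of all genes. Without the 9 libraries that held Cyp11b1, of which 4 were also high in Alb, 3 of 78 were called, with 4.19%, and with the hepatocyte covariate 3 of 78, with 3.62%. Cyp4a12a then had an adjusted p of 0.068 and Cyp2b10 one of 0.188. The high-Alb libraries of young mice lay at ZT4, ZT8 and ZT16 and those of nephritic mice at ZT0. Without them, or without the Cyp11b1 libraries, only young mouse 18 was left at ZT16. Calls kept or lost in these fits rest on that mouse alone for young ZT16.

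The remission group asked whether P450 levels at ZT0 and ZT12 differed after treatment from those of nephritic mice and of young mice, in 1 fit over 8 remission, 13 nephritic and 14 young mice. The contrasts share the remission libraries. Against nephritic mice 6 of 74 P450 genes were higher and 32 lower, with 17% and 20.5% of all genes. Without the 2 high-Alb nephritic libraries of these times the counts were 4 higher and 25 lower of 72, with 12.9% and 16.3%. Against young mice 9 were higher and 37 lower, with 21.2% and 20.4%. Without the high-Alb libraries 10 were higher and 37 lower of 72, with 21.7% and 22.6%. Both libraries left out were nephritic, so that this contrast lost no remission or young library. Its counts are therefore no check on high Alb. The remission libraries were shallower and may come from another sequencing run, and with a run term bridged by the 4 repeat libraries of young and nephritic mice, taken to share that run, the counts were lower (3 higher and 14 lower of 74 against nephritic, with 9.37% and 14.2% of all genes, and 4 higher and 8 lower against young, with 6.88% and 6.94%). With the hepatocyte covariate 3 were higher and 9 lower of 74 against nephritic mice, with 8.56% and 11.6%, and 11 higher and 26 lower against young mice, with 21.7% and 19.5%.

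Cyp2d9 stood highest in remission. At ZT0 and ZT12 it ran from 4.44 to 10.6 CPM in young (median 7.53), from 1.41 to 22.6 in nephritic (median 15.3) and from 23.8 to 40.5 in remission mice (median 29.5). Every remission mouse was above every mouse of the other groups at these times. The log2 change was 0.87 against nephritic mice (SE 0.22, adjusted p = 0.00261) and 1.94 against young mice (SE 0.23, adjusted p = 6.84e-08), and with the run term 0.71 (adjusted p = 0.0826) and 1.78 (adjusted p = 0.000129). Cyp2a4 ran from 143 to 250 CPM in young, 12.8 to 321 in nephritic and 276 to 458 in remission mice. Remission values lay above all young values, and the change was 1.13 against nephritic (SE 0.28, adjusted p = 0.00222) and 0.87 against young mice (SE 0.30, adjusted p = 0.0199), and with the run term 1.24 (adjusted p = 0.0248) and 0.99 (adjusted p = 0.0986). Cyp2a5 showed no such rise, with changes of 0.02 (adjusted p = 0.97) and -0.81 (adjusted p = 0.124).

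Cyp1b1 in remission mice, at 28.1 to 45.4 CPM, lay within the nephritic range of 15.4 to 46.5 and above the young range of 9.08 to 20.8. It was higher than in young mice (1.05, SE 0.18, adjusted p = 1.56e-05) and had a change of 0.14 against nephritic mice (adjusted p = 0.544). Cyp4a12a in remission mice (3.36 to 13.4 CPM) lay between young (1.72 to 4.62) and nephritic mice (7.25 to 71.3) and overlapped both. Its change was -1.51 against nephritic (SE 0.38, adjusted p = 0.00222) and 1.32 against young mice (SE 0.36, adjusted p = 0.00361), where the run term gave 1.00 against young (adjusted p = 0.211) and the hepatocyte covariate -0.66, not past the test, against nephritic mice. Cyp4a12b fell by 3.04 against nephritic mice (adjusted p = 0.000289), and against young mice its change was 0.96 (adjusted p = 0.208). Cyp2j11 was higher than in nephritic mice by 0.81 (adjusted p = 0.0308), a call that was lost without nephritic mouse 6 or 8 or remission mouse 1 or 2 (0.72 to 0.76). Cyp2j13 lay between both groups as well, at -1.47 (adjusted p = 0.0483) and 1.53 (adjusted p = 0.0451), calls that were lost when any of 25 or of 20 single mice was left out (-1.15 to -1.53 and 1.23 to 1.55).

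Some P450 genes were lower in remission than in both other groups. Cyp2j9, a CYP2J enzyme, ran from 7.98 to 12.1 CPM in young, 7.36 to 12.1 in nephritic and 4.43 to 6.34 in remission mice. No remission mouse reached the lowest mouse of the other groups, and the change was -0.98 against each of them (SE 0.10, adjusted p = 1.87e-09 and 1.75e-09), with -1.05 and -1.01 under the run term, also past the test. Cyp4f17 fell by 1.02 against nephritic and by 0.51 against young mice, Cyp46a1 by 0.57 and by 0.52, Cyp2j8 by 1.30 and by 1.78, and Cyp4a32 by 1.18 and by 1.24, all past the test. The call of Cyp2j8 against nephritic mice was lost without remission mouse 5 (-1.12). With the run term the changes of Cyp4a32 were -0.65 (adjusted p = 0.243) and -0.74 (adjusted p = 0.239). Cyp4b1 (0.85 lower on the log2 scale), Cyp2d22 (0.70 lower) and Cyp27a1 (0.52 lower) were lower than in young mice without a called change against nephritic mice. Cyp7b1 was higher than in young mice by 0.71 (adjusted p = 0.00214). Cyp3a13 fell by 0.57 against nephritic mice (adjusted p = 0.0264), a call that was lost without nephritic mouse 8 or remission mouse 1, 6 or 7 (fell by 0.51 to 0.53). Of the marker lists, 12 of 12 adrenal and 6 of 9 hepatocyte markers were lower in remission than in both groups, and 5 of 5 injury markers were lower than in nephritic mice. Against young mice 8 of 16 proximal tubule markers were lower (median log2 change -0.66), and 9 of 10 leukocyte markers (2.4) and 4 of 5 injury markers (1.84) were higher. The part of the adrenal, tubule, leukocyte and injury markers in these changes was not tested.

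**Figure D5:**
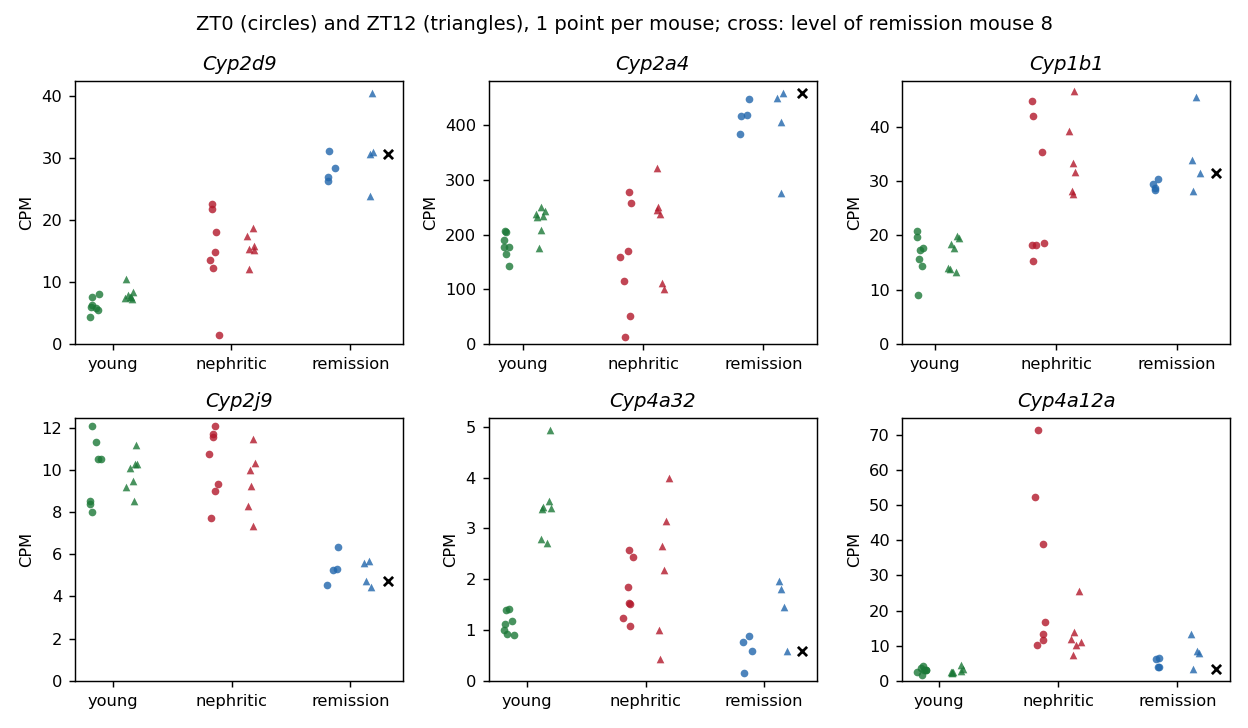
Level in CPM of Cyp2d9, Cyp2a4, Cyp1b1, Cyp2j9, Cyp4a32 and Cyp4a12a at ZT0 (circles) and ZT12 (triangles) in young, nephritic and remission mice, with a cross for remission mouse 8. All 8 remission points of Cyp2d9 lie above 23.8 CPM, where no young or nephritic point of these times is, and those of Cyp2j9 lie at or below 6.34 CPM, under all other points.

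Alb-linked genes were near or at 0 in remission libraries, which had the lowest Alb levels. In the 8 libraries 12 of these 30 genes, and 0 of the other 48 members, had 0 counts, and the median summed count of the 30 was 1.5. A floor of 3 counts over the group equals 0.0201 CPM. Against it, Cyp2c29 was at least 126-fold lower than in nephritic and at least 96.5-fold lower than in young mice, Cyp2c50 at least 95.4-fold and 54.7-fold lower, and Cyp2c54 at least 83.6-fold and 54.4-fold lower. Cyp2c39 was at least 47.1-fold and 43.8-fold lower, Cyp3a25 at least 43.3-fold and 44.3-fold lower and Cyp2b13 at least 30.6-fold lower than in nephritic mice. These bounds cover counting error only and use group means over 13 nephritic and 14 young mice. Nephritic mouse 6 moved them most: without it the bounds against nephritic mice were 71.6-fold for Cyp2c29, 49.7-fold for Cyp2c50, 44.8-fold for Cyp2c54, 24.9-fold for Cyp2c39, 27-fold for Cyp3a25 and 19.5-fold for Cyp2b13. Without both high-Alb nephritic mice, 6 and 8, they were 49.9-fold, 37.9-fold, 34.0-fold, 16.6-fold, 20.3-fold and 18-fold in the same order. With genes at 0 set at their bound, the median log2 change of the 28 tested Alb-linked genes was -4.2 against nephritic and -4.28 against young mice. It was -3.29 and -4.42 for the 26 tested without nephritic mice 6 and 8. Leaving these mice out removed no young or remission library, so that the value against young mice is no check on high Alb. Cyp3a11 ran from 0 to 0.264 CPM in remission mice and fell by 5.33 against nephritic mice (adjusted p = 0.000967) and fell by 6.13 against young mice (adjusted p = 0.000187), and Cyp2c70 ran from 0.0458 to 0.320 CPM.

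Between ZT0 and ZT12 within the remission group, 0 of 38 tested P450 genes were called, with 0.00% of all 14451 genes called by edgeR, where 7 of the 38 had an unadjusted p under 0.05 and 1449 of all genes did. Without remission mouse 8, 3 of 37 were called, with 1.41% of all genes. Cyp2a5 was 44.6, 47.7, 52.6 and 61.0 CPM at ZT0 and 54.6 (mouse 8), 107, 220 and 304 at ZT12, and apart from mouse 8 the times did not overlap. Without mouse 8 it was lower at ZT0 by 2.02 on the log2 scale (SE 0.30, adjusted p = 0.0234). Cyp2e1 was 52.1 to 76.0 CPM at ZT0 and 54.6 (mouse 8), 97.5, 133 and 165 at ZT12, lower at ZT0 by 1.07 without mouse 8 (SE 0.17, adjusted p = 0.0296), and Cyp27a1 was lower by 0.51 (SE 0.09, adjusted p = 0.0374).

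The genes that serve P450 enzymes were read from a list of 26 electron donors, haem enzymes, receptors and transcription factors. In nephritic mice 2 of the 26 rose, the haem oxygenase Hmox1 (log2 change 1.29) and the cytochrome b5 reductase Cyb5r3 (0.20), and 21 fell, where 28.1% and 33.9% of all genes did. Among those that fell were Por by 0.79, the electron donor Cyb5a by 0.53, the hepatocyte and tubule factor Hnf4a by 0.53, the fatty acid receptor Ppara by 0.77, the xenobiotic receptors Nr1i3 by 1.33 and Nr1i2 by 0.25, and the clock output factors Dbp by 0.57, Tef by 0.56 and Hlf by 0.65. Ahr, Ahrr and Nfil3 were not called. Nr1i3 itself had 74.2% of its young signal in the 5 high-Alb libraries. Over time points 17 of the 26 were called in young mice, where 39.8% of all genes were, Dbp with an adjusted p of 8.85e-20 and Por with 9.69e-07, and 8 in nephritic mice, where 21.6% were, and a different rhythm was called for Dbp (adjusted p = 0.000164) and Nr1i3 (adjusted p = 0.0286). Against nephritic mice remission mice had 4 of the 26 higher (among them Por by 0.87, the oxysterol receptor Nr1h3 by 0.41 and the epoxide hydrolase Ephx1 by 0.34) and 4 lower (Hmox1, Nr1i2, Nr1i3 and Nfil3), near the shares of 17% and 20.5% over all genes, and against young mice 2 higher and 11 lower, where 21.2% and 20.4% were.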

How the data were processed

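Gene counts of 69 whole-kidney libraries (65 mice and 4 repeat libraries), 1 library per mouse otherwise, were analysed. The counts deposited by the authors are whole read counts for 24538 gene symbols, 15 of them empty, made from reads aligned to mm10. The submitters' processing notes name HISAT and the study's methods a Burrows-Wheeler aligner. The strand setting of the counting was not given in the sources used here, so that overlapping genes cannot be told apart. Groups and time points came from the labels, and RNASeq sets from the labels and the study's sample list. The members, the gene lists and the named genes (both marker genes, the largest changes and amplitudes, the highest young levels and P450 genes listed by the study) were chosen with earlier results of these data known.

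Counts were tested on all genes with at least 100 counts in a fit by edgeR 4.0.16 in R 4.3.3 (TMM scaling, quasi-likelihood test, RNASeq set as covariate), with Benjamini-Hochberg adjustment over all genes tested and an adjusted p of at most 0.05. The young time points and nephritic time points were fitted per group, the rhythm difference as group by time terms. Amplitudes came from a cosine of 24 hours on log2 CPM with a prior count of 2. Levels are edgeR's CPM with TMM factors over the 65 original libraries, and per kilobase values use GENCODE vM21 exons. Promoters came from RefSeq. Scripts were tested on simulated data. Libraries over 1000 CPM of Alb were left out, and a hepatocyte marker covariate was added, as alternatives chosen after seeing the data. DESeq2 1.42.0 and limma 3.58.1 were also run. The p-values over genes assume that mice are independent, and the fold bounds cover counting error only. Depth was lowest in remission mice, with a median of 19725220 counts against 30300721 in young and 33047149 in nephritic mice, which limits genes under about 1 CPM there.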

Additional observations from a re-analysis of the deposited data

Results flagged for a closer look

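Single mice far from the others of their group and time point were looked for in 10 P450 genes and 120 groups, and 16 were found, where chance gives about 1 in 20. Young mouse 11 (ZT8), a library with high Alb, had 345 CPM of Cyp2a4, 692 of Cyp2e1 and 3.82 of Cyp2b10. Nephritic mouse 16 (ZT8), whose clock genes went against its label, had 45.7 CPM of Cyp2a5, below the other mice of ZT8, and 0.391 of Cyp2b10, above them. Cyp2b10, a gene near 0 in many libraries, was also far from the rest in nephritic mouse 10 (ZT4, 0.0865 CPM), young mouse 25 (ZT0, 0.233) and young mouse 22 (ZT20, 0.987). Young mouse 16 (ZT12) had 4.62 CPM of Cyp4a12a and 4.94 of Cyp4a32, and nephritic mouse 5 (ZT12) had 25.6 CPM of Cyp4a12a. Nephritic mouse 13 (ZT4) had 334 CPM of Cyp4a31, and nephritic mouse 10 (ZT4) and young mouse 28 (ZT12) had 21.4 and 10.6 CPM of Cyp2d9. Young mouse 24 (ZT20) had 9.77 CPM of Cyp2j9 and remission mouse 2 (ZT12) 988 CPM of Cyp2j5.

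Rhythms differed between young and nephritic mice in 30 of 78 P450 genes by the test of the difference itself, with 6.27% of all genes called. The lowest adjusted p (edgeR) were those of Cyp4a12a (0.00958), Cyp2e1 (0.015), Cyp7a1 (0.015), Cyp3a13 (0.0171), Cyp2a12 (0.0172), Cyp2c70 (0.0173), Cyp2d37-ps (0.0176) and Cyp2b10 (0.0211). Cyp3a25 (0.0222), Cyp2c50 (0.0234), Cyp2c54 (0.0267), Cyp3a59 (0.0294), Cyp2d10 (0.0326), Cyp2d13 (0.0327), Cyp3a11 (0.0327), Cyp2c29 (0.0328), Cyp3a16 (0.0341), Cyp2b13 (0.0366), Cyp2c37 (0.0376), Cyp4a12b (0.048) and Cyp2c39 (0.0485) followed. Other called genes were left out of this list, among them Cyp4a32, which is described above, Cyp2c69 and Cyp2d40. The calls of Cyp2c69 and Cyp2d40 were lost when any of 42 or of 43 single mice was left out. Many of the listed calls rested on single mice. The call was lost when any of 45 of the 57 mice was left out for Cyp4a12b, 39 for Cyp2c39, 19 for Cyp2c37, 11 for Cyp2b13, 10 for Cyp3a16, 8 for Cyp2c29, 6 each for Cyp2d10 and Cyp2d13, 5 for Cyp3a11 (young mice 3 and 17, nephritic mice 22, 23 and 24), 3 each for Cyp2c54 (nephritic mice 22, 23 and 24) and Cyp3a59 (young mouse 3, nephritic mice 22 and 24), and 1 for Cyp2c50 (nephritic mouse 24), with adjusted p of 0.05 to 0.093. Of the genes listed, Cyp2e1 was the only one still called without the 7 high-Alb libraries.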

How the results depend on the processing

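Over all alternatives, called log2 changes of nephritic against young mice lost the call 62 times and changed sign 0 times. Counts of P450 genes changed with the libraries left out and with the covariates. Nephritic mice 6 and 8, left out for high Alb, were also among the nephritic mice with the lowest proximal tubule sums. Fits without them left out both traits at once. Fits over time without the high-Alb or the Cyp11b1 libraries kept only young mouse 18 at ZT16. Lower genes in nephritic mice were 29 without the libraries with Cyp11b1, 25 with an adipocyte covariate and 18 without the high-Alb libraries, but 42 with the hepatocyte covariate. Genes called over time points in young mice were 26 by limma, 32 without the Cyp11b1 libraries, 27 with the hepatocyte covariate, 21 without the high-Alb libraries and 20 by cosinor. In nephritic mice they were 15 without the set term, 10 with the hepatocyte covariate and 2 by cosinor. Genes with a different rhythm were 18 by limma, 3 without the Cyp11b1 libraries, 3 with the hepatocyte covariate, 2 without the high-Alb libraries and 1 by cosinor, and 41 by DESeq2. Higher and lower genes in remission against nephritic mice were 3 and 14 with the run term, 3 and 11 with it but without the repeat of nephritic mouse 21, which was closer to another mouse than to its own original, and 3 and 9 with the hepatocyte covariate. Against young mice they were 4 and 8, and 2 and 4, with the run terms. For limma, cosinor, DESeq2, the adipocyte covariate, the fit without the set term and the run term without that repeat, shares over all genes are not given here. Those counts alone cannot tell a P450 result from a setting that calls more or fewer genes of all kinds. Between ZT0 and ZT12 in remission the count was 3 without mouse 8. Cyp2j13 (0.14, remission against nephritic) and Cyp2d10 (0.43, remission against young) changed sign with the hepatocyte covariate. The cause of these changes was not tested.

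Leaving out 1 mouse at a time gave 12 to 15 higher and 28 to 46 lower genes in nephritic mice (28 without young mouse 11), 43 to 58 and 22 to 31 over time points in young and nephritic mice, 5 to 8 higher and 30 to 35 lower in remission against nephritic, 7 to 10 higher and 32 to 42 lower against young, and 0 to 3 between ZT0 and ZT12 in remission (3 without remission mouse 8). Genes with a different rhythm ran from 13 to 37, with 17, 19, 14, 14 and 19 without young mice 1, 2, 3, 17 and 19 and 13, 14 and 13 without nephritic mice 22, 23 and 24. No paired analysis was possible because replicate numbers name mice in accession order and each mouse gave 1 kidney at 1 time. P450 genes under about 1 CPM rest on few counts per library.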
